A study of Homo sapiens and Mus musculus with 16 samples.

Results

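The cytosolic heat shock chaperones were followed in the human liver cancer line SK-HEP-1 through 10 genes, HSPA1A, HSPA1B, HSPA8, HSPH1, DNAJB1, DNAJA1, HSP90AA1, HSP90AB1, HSPB1 and BAG3. They were chosen by name, and all 10 were found among the 22314 genes of the mRNA table. Of these, 7, HSPA1A, HSPA1B, DNAJB1, HSPH1, BAG3, HSPB1 and HSP90AA1, were classed as stress-inducible and 3, HSPA8, HSP90AB1 and DNAJA1, as constitutive, from general knowledge of the genes. Earlier results of these data were known when the members and classes were chosen, so the choice was not independent of the data. Cells received DMSO alone (U, untreated) or 0.5 mg/ml of an ethanol extract of the fruiting body of the fungus Antrodia cinnamomea (AcFBE) prepared in DMSO (T, treated), for 2 or 4 h. Poly(A) mRNA was amplified as cDNA and sequenced on a SOLiD 3 instrument, giving 1 library for each of 2U, 2T, 4U and 4T. The study was designed to find early effects of AcFBE on liver cancer cells.

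Heat shock proteins hold unfolded proteins, refold them or pass them on for degradation. HSP70 works with J-domain partners that deliver clients and with exchange factors that release them, and HSP90 completes the folding of many kinases and receptors. Under stress the factor HSF1 is freed from chaperones, binds heat shock elements in promoters and raises the inducible members, whereas the constitutive members are made in unstressed cells as well.

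With 1 library per condition no difference has a replicate check, no test was made and no p-value is given. A gene is counted as higher or lower when its FPKM, the number of fragments scaled to transcript length and to the total mapped, differs at least 2-fold between 2 libraries. FPKM gives no read counts, so the number of reads behind each value was not given. The study does report the mapped reads of each library, and the share of reads that passed quality was lowest in 2U. In mRNA from whole cultures, fewer cells expressing a gene and less RNA per cell cannot be told apart. The genes above 0 numbered 10691 (2U), 8454 (2T), 9550 (4U) and 9773 (4T). The gene counts printed in the study are the same for 4U and 4T. For 2U and 2T they differ from these, and the study has more genes in 2T than in 2U. The lowest value above 0 was 0.0001 in 2U and 2T but 0.2 in 4U and 4T. The deposited 2 h values may thus have been filtered in another way than those at 4 h, which was not tested. The 2U library stood apart: 5 of 7 genes commonly taken as steady were at least 2-fold higher in 2T than in 2U, with a median log2 ratio of 1.19 (range -0.17 to 2.93), while the median at 4 h was 0.07 (range -0.27 to 2.41). ACTB, for example, was at 653 FPKM in 2U and between 1827 and 2305 in the other libraries. Of 8 hepatocyte markers, 7 including ALB were listed at 0 in all 4 libraries and SERPINA1 was between 8.59 and 18.7 FPKM, and the 5 endothelial markers were listed at 0 as well. The mesenchymal markers ranged from 6465 to 13625 FPKM for VIM, from 25.5 to 55.6 for THY1 and from 4.92 to 14.5 for FN1. Some broadly expressed genes were also listed at 0, so a listed 0 does not show that a gene was silent.

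The promoters of 5 members are shown because matches to the element HSF1 binds occur before the starts of members that differed in direction. HSPA1A, HSPA1B and DNAJB1 were low in the treated libraries and HSPA8 was high, while HSP90AA1 was past 2-fold higher only at 4 h. The 160 bases before a transcription start come from RefSeq (GRCh38.p14 table) and were placed on GRCh37 by exact match, each at 1 position. DNAJB1 has 3 start windows in the table and HSP90AA1 has 2, and the window shown for each was picked because it holds matches, while another window of each held 0. Capitals mark matches to the 2-unit heat shock elements GAANNTTC and TTCNNGAA and to the 3-unit elements GAANNTTCNNGAA and TTCNNGAANNTTC. The 2-unit elements read the same on both strands, the 3-unit elements are each other's reverse complement, and every 3-unit match contains overlapping 2-unit matches.
HSPA1A, chr6:31783160-31783319, plus strand: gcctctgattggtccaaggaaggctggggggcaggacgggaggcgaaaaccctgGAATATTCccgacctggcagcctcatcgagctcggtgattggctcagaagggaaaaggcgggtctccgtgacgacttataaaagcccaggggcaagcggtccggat
HSPA1B, chr6:31795355-31795514, plus strand: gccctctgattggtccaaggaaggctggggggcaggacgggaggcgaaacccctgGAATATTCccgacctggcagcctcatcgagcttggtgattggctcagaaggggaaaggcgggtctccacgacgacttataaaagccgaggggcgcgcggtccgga
DNAJB1, chr19:14629210-14629369, minus strand: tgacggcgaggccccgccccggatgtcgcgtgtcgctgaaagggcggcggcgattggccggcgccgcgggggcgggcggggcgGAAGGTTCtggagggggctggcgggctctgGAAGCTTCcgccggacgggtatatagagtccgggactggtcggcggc
HSP90AA1, chr14:102553382-102553541, minus strand: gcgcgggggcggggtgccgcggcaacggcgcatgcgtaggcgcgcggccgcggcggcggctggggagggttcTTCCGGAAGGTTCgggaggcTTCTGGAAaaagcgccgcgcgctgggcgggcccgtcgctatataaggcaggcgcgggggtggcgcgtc
HSPA8, chr11:122932845-122933004, minus strand: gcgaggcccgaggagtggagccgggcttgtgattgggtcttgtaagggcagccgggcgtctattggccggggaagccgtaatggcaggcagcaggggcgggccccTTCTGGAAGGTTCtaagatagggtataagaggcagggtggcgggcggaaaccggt

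In windows of 300 bases, 250 before and 50 after the start, 8 of the 10 members had a 2-unit match in at least 1 of their windows and 4 had a 3-unit match. Over all genes of the promoter table the shares were 16.2% and 0.608%, and over all 35116 windows they were 13.5% and 0.490%. The 3-unit matches belonged to HSP90AA1, HSPA8, HSP90AB1 and DNAJA1, of which 3 are the constitutive members, and HSPA8 and HSP90AB1 held 2 each. HSPA1A, HSPA1B, DNAJB1 and HSPB1 held 2-unit matches without a 3-unit one, and HSPH1 and BAG3 held neither spelling in this window. A match is a description of letters and not a bound site. Only the exact spellings were counted, so a site that differs from them by 1 base is not included. A missing 3-unit match thus does not show that a promoter lacks such an element. The wider group of genes with a 3-unit match gave, without the members, 9 of 30 at least 2-fold higher and 6 of 30 lower at 2 h (against 23.4% and 18.4% of all genes). At 4 h 9 of 34 were higher and 7 of 34 lower (against 12.6% and 20.9%).

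HSPA1A and HSPA1B encode the stress-inducible HSP70 and lie side by side on chromosome 6 (GRCh37, 31783320 to 31785723 and 31795515 to 31798031, plus strand), each in 1 exon. HSPA1A was at 2347 FPKM (2U), 21.1 (2T), 473 (4U) and 11.9 (4T). HSPA1B was at 1539, 14.6, 343 and 9.82 FPKM in the same order. Both genes were high in the untreated libraries and low in the treated ones, with no overlap between the 2 conditions. For these and the members below, the share of all genes whose treated and untreated libraries separate in this way was not computed. HSPA1A was 111-fold lower in 2T than in 2U (log2 ratio -6.80, 14th lowest of 8448 genes) and 39.9-fold lower in 4T than in 4U (-5.32, 10th lowest of 8651). HSPA1B was 105-fold lower at 2 h (log2 ratio -6.72), and its log2 ratio at 4 h was -5.13. The untreated level itself differed between the times, since HSPA1A was 4.96-fold and HSPA1B 4.48-fold lower in 4U than in 2U. The 2 genes share most of their sequence: 75.3% of the 35-base words of HSPA1A transcripts also occur in HSPA1B, so reads could be split between them and their separate values are uncertain. Their ratio stayed between 1.21 and 1.53 over the 4 libraries, and their sum was 3886 FPKM (2U), 35.72 (2T), 816.1 (4U) and 21.67 (4T).

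DNAJB1, the J-domain protein HSP40 that delivers clients to HSP70 (chromosome 19, 14625581 to 14671203, minus strand), had the highest FPKM of the 10 members in 2U, at 2820. Its other values were 72.6 FPKM (2T), 596 (4U) and 84.6 (4T). Like the HSP70 pair it was higher in both untreated libraries than in either treated one. The difference was 38.8-fold at 2 h (log2 ratio -5.28) and 7.04-fold at 4 h (-2.81), and DNAJB1 was 4.74-fold lower in 4U than in 2U. HSPA6, another strictly inducible HSP70 that is no member of the set, was at 75.3 FPKM (2U), 0.196 (2T), 3.60 (4U) and 0.280 (4T), and 54.5% of its 35-base words also occur in HSPA7.

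The other stress-inducible members differed less between treated and untreated libraries. HSPH1, an HSP110 that exchanges nucleotide on HSP70 (chromosome 13, 31709110 to 31736525, minus strand), was at 2.14 FPKM (2U), 1.41 (2T), 1.15 (4U) and 1.18 (4T). Its log2 ratios of -0.60 at 2 h and 0.04 at 4 h were both short of 2-fold. Centred on the steady genes they were -1.79, past 2-fold lower, and -0.03. BAG3, a cochaperone that links HSP70 to autophagy (chromosome 10, 121410892 to 121437331, plus strand), was at 3.68 FPKM (2U), 3.72 (2T), 16.5 (4U) and 5.59 (4T). BAG3 thus stood out in 4U alone, 4.48-fold above 2U and 2.95-fold above 4T (log2 ratio -1.56 for 4T to 4U). At 2 h its log2 ratio was 0.02 and took either sign over the scalings, from -1.17 to 0.07.

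HSPB1, the small heat shock protein HSP27 that holds unfolded proteins (chromosome 7, 75931990 to 75933612, plus strand), was at 938 FPKM (2U), 544 (2T), 788 (4U) and 403 (4T). Both treated libraries lay below both untreated ones, by 1.72-fold at 2 h and by 1.95-fold at 4 h. Centred on the steady genes its log2 ratios were -1.98 and -1.04, past 2-fold lower at both times. HSP90AA1, the inducible cytosolic HSP90 (chromosome 14, 102547079 to 102606036, minus strand), was at 109 FPKM (2U), 141 (2T), 36.0 (4U) and 111 (4T). It was 3.07-fold higher in 4T than in 4U (log2 ratio 1.62), in the opposite direction to HSPA1A, HSPA1B and DNAJB1. The low value was that of 4U, 3.02-fold below 2U, and the other 3 libraries lay within a range of 109 to 141 FPKM. At 2 h its log2 ratio of 0.37 was short of 2-fold and became -0.82 when centred on the steady genes.

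**Figure D1:**
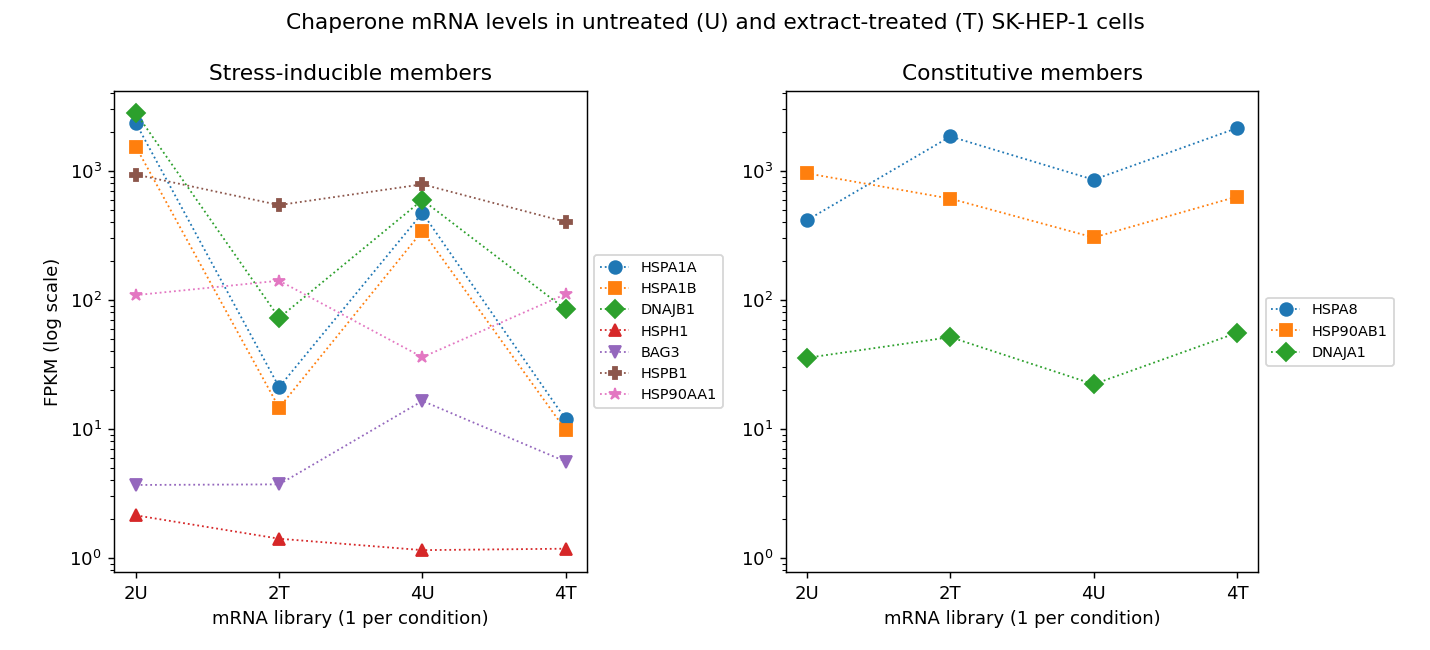
FPKM (log axis) of the 7 stress-inducible and the 3 constitutive members in the 4 mRNA libraries, 1 point per library, with dotted lines that only join the points of a gene. HSPA1A, HSPA1B and DNAJB1 sit between 343 and 2820 FPKM in 2U and 4U and between 9.82 and 84.6 in 2T and 4T, while HSPA8 is at 1850 and 2148 in 2T and 4T.

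Among the constitutive members, HSPA8 encodes HSC70, the HSP70 present in unstressed cells (chromosome 11, 122928197 to 122933938, minus strand). HSPA8 was at 416 FPKM (2U), 1850 (2T), 855 (4U) and 2148 (4T). Both treated libraries lay above both untreated ones, by 4.44-fold at 2 h (log2 ratio 2.15) and 2.51-fold at 4 h (1.33). HSPA8 was the only member at least 2-fold higher at both times as deposited. Centred on the steady genes its log2 ratio was 0.96 at 2 h, just short of 2-fold, and 1.26 at 4 h. The untreated level was 2.05-fold higher in 4U than in 2U.

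HSP90AB1, the constitutive cytosolic HSP90 (chromosome 6, 44213903 to 44221625, plus strand), was at 958 FPKM (2U), 610 (2T), 305 (4U) and 632 (4T). Its log2 ratio was -0.65 at 2 h and 1.05 at 4 h, and its 2 untreated libraries, which were 3.14-fold apart, lay on either side of the treated ones. Centred on the steady genes the ratios were -1.84, past 2-fold lower, and 0.98, short of 2-fold higher. DNAJA1, a J-domain partner of HSC70 (chromosome 9, 33025271 to 33039905, plus strand), was at 35.6 FPKM (2U), 51.5 (2T), 22.2 (4U) and 55.6 (4T). Both treated values were above both untreated ones, with 1.45-fold at 2 h (log2 ratio 0.53, or -0.66 when centred on the steady genes) and 2.51-fold at 4 h (1.33). Pseudogene copies and related genes share 35-base words with the members, which leaves some uncertainty in their values, less than for HSPA1A and HSPA1B: 30.4% of the words of HSP90AB1, 22.6% of HSP90AA1 and 18.1% of HSPA8 occur in transcripts of other genes.

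Taking the 10 members at 2 h, 1 was at least 2-fold higher in the treated library, against 23.4% of all genes above 0 in both libraries, and 3 were lower, against 18.4%. Among genes with a mean of at least 10 FPKM, a level most members reach, the shares were 18.7% and 17.7%. At 4 h, 4 members were higher, against 12.6% of all genes (17.4% of those with a mean of at least 10 FPKM), and 4 were lower, against 20.9% (24.7%). With 10 members, 1 gene is 10 percentage points, and these counts describe 4 libraries only. Members and classes were chosen with earlier results of these data known. HSPA1A and HSPA1B share most of their sequence. With their values summed as 1 gene, 2 members were lower at 2 h and 3 at 4 h. With the 2 genes kept apart, the members lower at 2 h were HSPA1A, HSPA1B and DNAJB1, joined by BAG3 at 4 h. The 4 members higher at 4 h were HSPA8, DNAJA1, HSP90AA1 and HSP90AB1. The median log2 ratio of the stress-inducible members was -0.78 at 2 h and -1.56 at 4 h, against 0.53 and 1.33 for the constitutive members and 0.07 and -0.18 for all genes. Centred on the steady genes, 0 members were higher and 7 lower at 2 h, and the 2 h medians were -1.98 and -0.66, so that the direction of the constitutive median turned. At 4 h all 3 constitutive members lay above all stress-inducible members except HSP90AA1, and at 2 h the ranges of the classes overlapped.

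**Figure D2:**
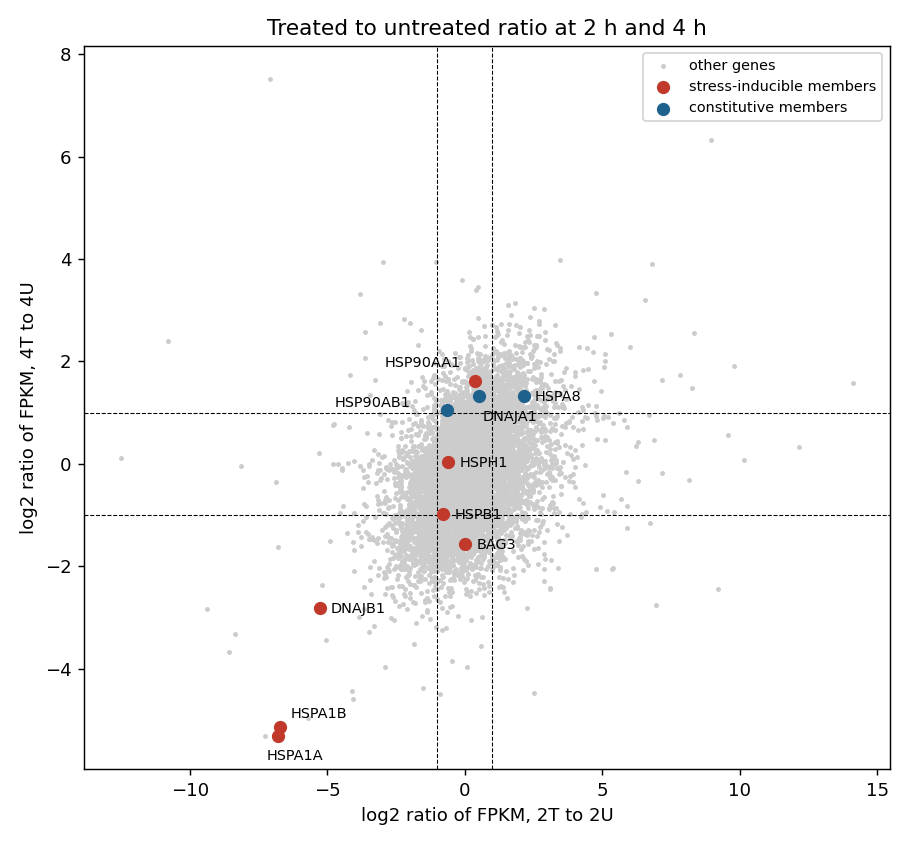
Log2 ratio of treated to untreated FPKM at 2 h (horizontal) and 4 h (vertical) for the 7678 genes above 0 in all 4 libraries (grey) and the 10 members (coloured by class), with dashed lines at 2-fold. HSPA1A, HSPA1B and DNAJB1 lie far to the lower left, while HSPA8 is the only member past the 2-fold line to the upper right.

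The untreated libraries alone also differed. From 2U to 4U, without extract in either, 2 members were at least 2-fold higher (BAG3 and HSPA8), against 34.5% of all genes and 15.1% of those with a mean of at least 10 FPKM, and 5 were lower (HSPA1A, HSPA1B, DNAJB1, HSP90AA1 and HSP90AB1), against 7.27% and 9.75%. The median log2 ratio was -1.59 for the stress-inducible and -0.68 for the constitutive members, against 0.50 for all genes and -0.00 for those with a mean of at least 10 FPKM. Between the treated libraries, 4T to 2T, 0 members were higher and 0 were lower, against 16.1% and 4.27% of all genes and 0.843% and 2.39% of those with a mean of at least 10 FPKM, and the members' log2 ratios ranged from -0.83 (HSPA1A) to 0.59 (BAG3). Few genes of that level differed 2-fold between the treated libraries, so the count of 0 is no feature of the members. The 2 h and 4 h comparisons share no library.

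Ratios within a library do not depend on how libraries are scaled. The sum of HSPA1A and HSPA1B was 9.33 times HSPA8 in 2U and 0.955 times in 4U, but 0.0193 times in 2T and 0.0101 times in 4T. DNAJB1 was 79.2 times DNAJA1 in 2U and 26.9 times in 4U, against 1.41 and 1.52 times in 2T and 4T. In both chaperone pairs the ratio of inducible to constitutive partner was higher in the untreated libraries, although HSPA8 was slightly above the HSPA1A and HSPA1B sum in 4U. HSP90AB1 was 8.80 times HSP90AA1 in 2U and 8.46 times in 4U, against 4.32 in 2T and 5.71 in 4T. The constitutive gene of the HSP90 pair was thus the higher one in every library. The share of the inducible gene was larger in the treated libraries than in the untreated ones. All 10 members together made up 1.12% of the FPKM (2U), 0.421% (2T), 0.406% (4U) and 0.419% (4T). The stress-inducible members summed to 5.50 times the constitutive ones in 2U and 1.91 times in 4U, and to 0.318 and 0.221 times in 2T and 4T.

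**Figure D3:**
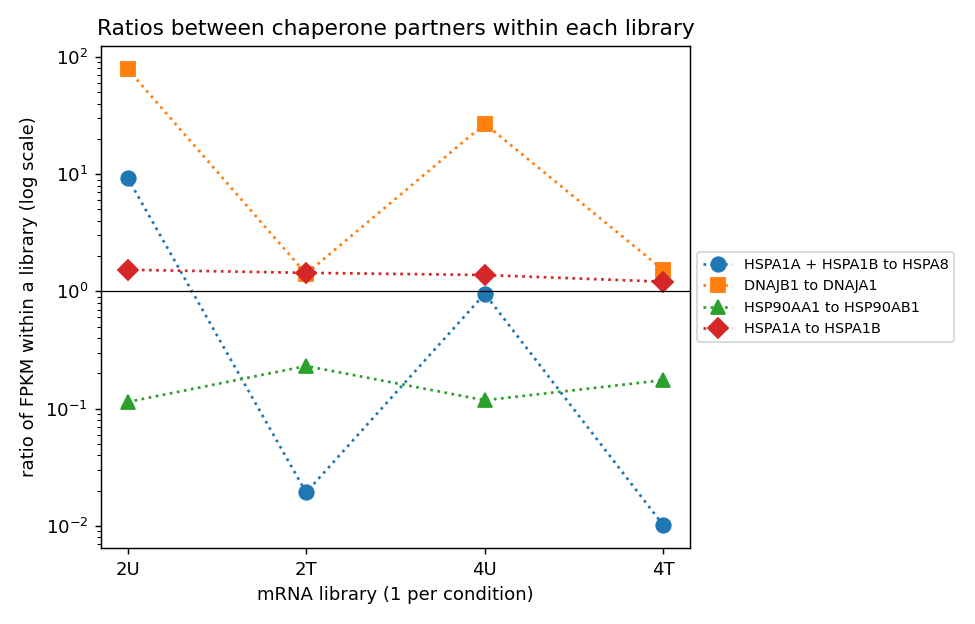
Ratio of FPKM between chaperone partners within each of the 4 mRNA libraries (log axis, line at 1), 1 point per library. The ratio of HSPA1A and HSPA1B to HSPA8 drops from 9.33 in 2U and 0.955 in 4U to 0.0193 in 2T and 0.0101 in 4T, while HSPA1A to HSPA1B stays between 1.21 and 1.53.

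The rest of the chaperone system, 62 genes in 8 lists, was compared in the same way. At 2 h, 16 of the 46 genes with a ratio were at least 2-fold higher (34.8%, against 23.4% of all genes) and 6 were lower (13.0%, against 18.4%), with a median log2 ratio of 0.23. At 4 h, 10 of 48 were higher (20.8%, against 12.6%) and 11 were lower (22.9%, against 20.9%), with a median of -0.07. The steady genes were themselves higher in 5 of 7 cases at 2 h, and the single lists below, of at most 11 genes each, are counts to be read against the same all-gene shares. HSF1, the factor that drives the inducible members, was at 9.84 FPKM (2U), 10.9 (2T), 29.1 (4U) and 9.35 (4T). Its mRNA was thus highest in 4U, as that of BAG3 was, and its log2 ratio was 0.15 at 2 h and -1.64 at 4 h.

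Of the other cytosolic HSP70 and HSP110 genes, HSPA14, a ribosome-associated HSP70, had log2 ratios of 2.13 and 1.77 at 2 and 4 h, whereas HSPA6 had -8.59 and -3.68. Among J-domain proteins 0 of 6 were higher and 1 was lower at 2 h, with 2 of 9 higher and 2 lower at 4 h. Among the J-domain genes above 0 in all 4 libraries, the highest mean log2 ratio was that of DNAJC2 (0.26 and 1.16) and the lowest that of DNAJA4 (-2.94 and -0.52). DNAJC7, singled out after its values were seen, was listed at 0 in 2T and had a log2 ratio of -5.62 at 4 h, from 10.3 FPKM in 4U to 0.210 in 4T. Of the 8 genes listed as other small heat shock proteins, 6 were at 0 in all libraries, and CRYAB was at 1.35 FPKM in 2U and 0 in the rest. The remaining gene, HSPB11, was higher at both times (1.47 and 1.75), and whether it acts as a small heat shock protein was not examined.

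Of the HSP90 cochaperones, 5 of 11 were higher and 1 was lower at 2 h, but 1 of 9 was higher and 1 lower at 4 h. CHORDC1, which stayed below 1 FPKM, had log2 ratios of 2.84 and 0.06, and UNC45A, a chaperone of myosin, had -1.58 and -1.68. HSP70 cochaperones gave 2 of 7 higher and 2 lower at 2 h, and 0 higher and 3 lower at 4 h. BAG6, which handles misplaced membrane proteins, was at 76.6 FPKM (2U), 10.5 (2T), 47.0 (4U) and 10.3 (4T), while BAG2 had log2 ratios of 3.41 and -0.20. Mitochondrial chaperones gave 3 of 6 higher and 0 lower at 2 h and 2 higher and 2 lower at 4 h. HSPD1, the mitochondrial HSP60, was at 11.2, 64.7, 15.9 and 58.5 FPKM in 2U, 2T, 4U and 4T, and TRAP1, the mitochondrial HSP90, had log2 ratios of -0.89 and -1.53. ER chaperones gave 3 of 9 higher and 1 lower at 2 h and 2 higher and 1 lower at 4 h, with HSP90B1, the ER HSP90, at 1.36 and 1.84 and the collagen chaperone SERPINH1 at -2.65 and -1.60.

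**Figure D4:**
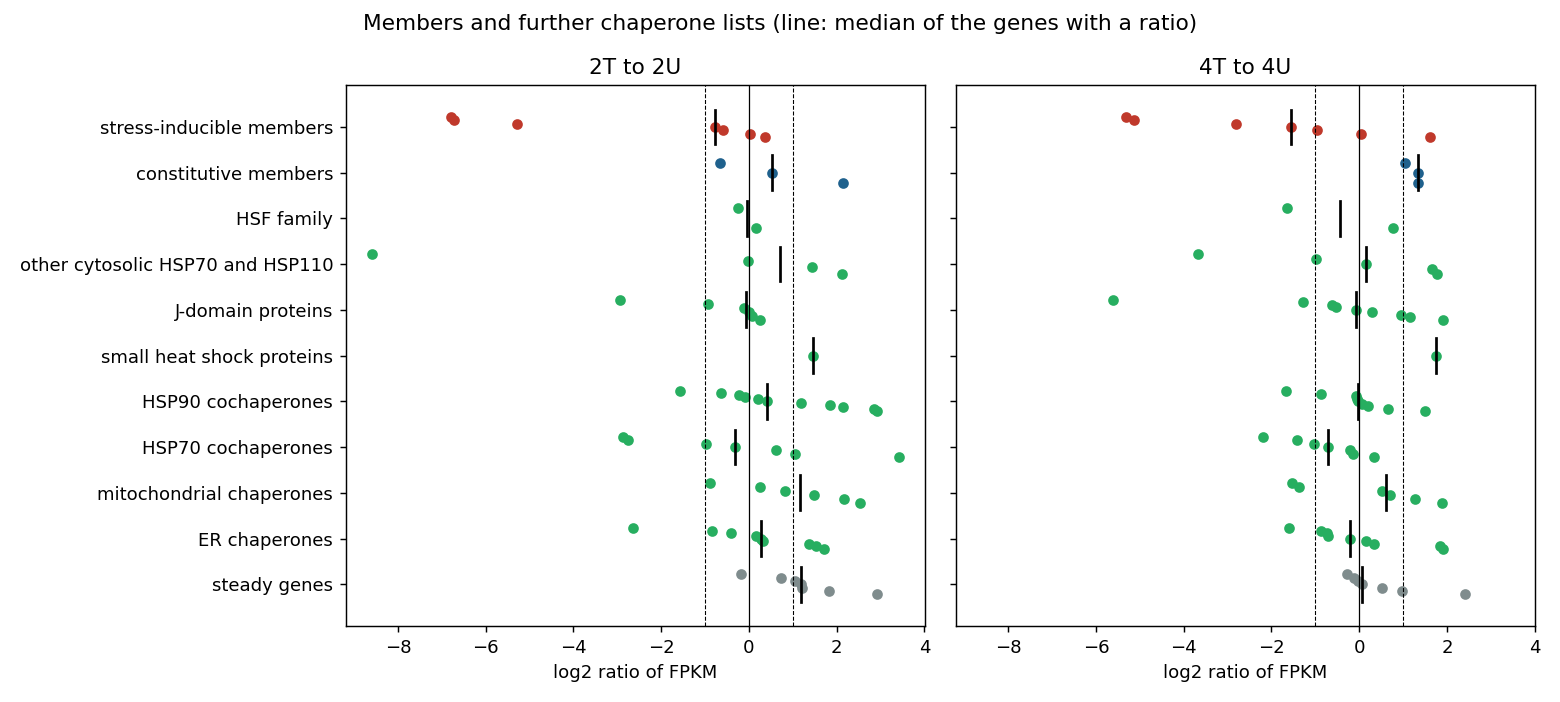
Log2 ratio of treated to untreated FPKM at 2 h (left) and 4 h (right) for the members by class, 8 further chaperone lists and the steady genes, 1 point per gene with a ratio, the black line at the median and dashed lines at 2-fold. The stress-inducible members have medians of -0.78 and -1.56 and the steady genes 1.19 and 0.07.

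The genes whose profile over the 4 libraries was most like that of HSPA1A were found by the Euclidean distance between log2 FPKM profiles, each centred on its own mean, among 4074 genes of at least 1 FPKM in every library. They were HSPA1B (distance 0.25), DUSP1 (0.91), DNAJB1 (2.15), CTGF (2.84) and IER2 (2.85). DUSP1, a phosphatase of MAP kinases, was at 227 FPKM (2U), 4.33 (2T), 79.1 (4U) and 2.53 (4T). For HSPA8 the nearest were AMZ2 and FAM49B (0.10 each), PSMA6 (0.14), OSTC and GGCT (0.16 each), and no other member was among them. Only 4 points make up each profile, so these likenesses are descriptions.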

How the data were processed

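Messenger RNA of 4 SK-HEP-1 libraries (2U, 2T, 4U, 4T) was analysed, and the miRNA tables were not used. The authors kept reads of sufficient quality, mapped them to hg19 with 2 mismatches allowed and deposited 1 FPKM value per gene and library. The submitters' processing notes name TopHat and Cufflinks, the study's methods Bowtie and Cufflinks, with versions and the length of the mRNA reads not given in the sources used here. Words of 35 bases, the length given for the small RNA reads, were used to find sequence shared between transcripts. Some rows carried extra text cells, which were not used. Log2 ratios were computed from the deposited FPKM without pseudocount, over genes above 0 in both libraries, and no test was made because each condition has 1 library. All 10 members were named, and from each further list the genes with the highest and the lowest mean log2 ratio among those above 0 in all 4 libraries, plus HSF1 and HSPA6 and the 5 genes nearest in profile to HSPA1A and to HSPA8. ACTB was singled out from the steady genes after its values were seen. 1 further list is not reported here. The members, classes and lists were chosen with earlier results of these data known. Positions are from GENCODE 44 on GRCh37. The calculation was tested on simulated data. Python 3.11.15, numpy 2.4.6, pandas 2.3.3 and matplotlib 3.10.9 were used. Alternatives covered scaling, pseudocount, filter, fold, summing HSPA1A with HSPA1B and the class of DNAJA1.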

Additional observations from a re-analysis of the deposited data

Results flagged for a closer look

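For 3 members the treated library lay on opposite sides of the untreated one at 2 h and at 4 h, and none of these differences was tested, since each condition has 1 library. The log2 ratio at 4 h minus that at 2 h was 0.64 for HSPH1, -1.57 for BAG3 and 1.70 for HSP90AB1. HSPH1 and BAG3 each had 1 ratio close to 0 (0.04 at 4 h and 0.02 at 2 h) whose sign depended on the scaling. For HSP90AB1 the values were 958 and 610 FPKM in 2U and 2T and 305 and 632 FPKM in 4U and 4T, so the treated libraries were alike and the untreated ones 3.14-fold apart.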

How the results depend on the processing

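Of 498 values recomputed under the alternatives, 461 kept their direction and their size within 1.5-fold, 37 moved and 0 were reversed while past 2-fold. Many of the 461 could not have moved, so this count is no measure of stability. They include all values under the choice among rows of a symbol and under the filter at 1 FPKM. They also include the single members that the summing or leaving out of other members did not touch. At a fold of 1.5, 6 members were lower at 2 h, and at a fold of 3, 1 member was higher at 4 h. With HSPA1A and HSPA1B summed, 2 members were lower at 2 h and 3 at 4 h. The median log2 ratio of the stress-inducible members was then -0.69 at 2 h and -1.26 at 4 h. The next 2 alternatives were chosen after seeing the data. Centred on the median ratio of the steady genes, 0 members were higher and 7 lower at 2 h, and the median log2 ratios of the stress-inducible and constitutive members were -1.98 and -0.66 at 2 h and -2.51 and -1.60 for 4U to 2U, while at 4 h 3 members were higher and 5 lower. The steady genes' own ratios were wide apart, and which scale is the right one was not tested. The counts above leave out a first form of this scaling, which divided each library by the median level of the 7 steady genes. It was dropped as faulty because that median fell on different genes in different libraries. In it HSPA8, DNAJA1, HSP90AA1 and HSP90AB1 were lower at 4 h. Without HSPA1A, HSPA1B and DNAJB1, 0 members were lower at 2 h and 1 at 4 h, and the median of the stress-inducible members was -0.46 at 4 h and -0.57 for 4U to 2U. HSPA1A, HSPA1B and DNAJB1 were at least 2-fold lower at both times under every scaling, pseudocount and filter tried. No symbol stood on several rows, so that choice changed nothing. Every member was above 1 FPKM in every library, so the filter at that level could not change the members' values either. No paired analysis was possible because each mRNA condition has 1 library, and for the same reason no replicate could be left out.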
